A study of Mus musculus with 28 samples.

Results

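The genes described here are 8 components of the PI3K and mTOR signalling pathway: Akt1, Tsc1, Tsc2, Rheb, Mtor, Rptor, Rictor and Rps6kb1. They were chosen by name, without regard to any threshold, and are 8 of the 23995 genes listed in each library. Ribosome-bound mRNA was sequenced after immunoprecipitation of HA-tagged ribosomes (axon-TRAP), and the question was which mRNAs the axons of retinal ganglion cells (RGCs) translate while they grow into, and mature in, their midbrain target, the superior colliculus (SC). The animals were C57BL/6 mice from a cross of the RiboTag line, whose ribosomal protein gene Rpl22 gains an HA tag after recombination, with Pax6-alpha-Cre, a transgene active for a short time in progenitors of the peripheral retina. At E17.5, P0.5, P7.5 and in the adult, 3 groups of 2 libraries each were made, which gives 24 libraries. Cre-positive SC holds tagged axonal ribosomes of RGCs, Cre-negative SC from littermates carries the RiboTag allele without Cre and shows what the precipitation picks up without a tag, and the retina group is Cre-positive tissue that holds the RGC cell bodies, for which the methods describe whole eyes. Each library came from pooled tissue of several animals, the tag marks RGCs of the peripheral retina only and also other retinal cells from the same progenitors, and all lysates contained cycloheximide and rapamycin, an inhibitor of mTOR. A further 4 adult libraries without replicates tested ribosome run-off.

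PI3K is recruited by activated growth factor receptors and makes a membrane lipid that brings the kinase Akt to the membrane, where it is switched on. Akt phosphorylates TSC2, which together with TSC1 forms a complex that keeps the small GTPase RHEB inactive, and RHEB bound to GTP activates the kinase mTOR in its complex with RAPTOR (mTORC1). mTORC1 phosphorylates the S6 kinase and the 4E-BP proteins and so promotes translation, whereas mTOR in its complex with RICTOR (mTORC2) phosphorylates Akt. In axons this pathway is known for the control of local protein synthesis by guidance cues and growth factors.

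The deposited values were FPKM, that is, fragment numbers scaled by transcript length and by the size of the library. The number of fragments behind a library was not stated, and its estimate from the spacing of low values ranged from 484172 in Cre-negative SC replicate 1 at E17.5 to 13645831 in Cre-negative SC replicate 2 at E17.5, with 512861 to 2018366 in the 4 adult SC libraries. Between 1162 and 8769 genes were above 0 in a library. Several libraries stood apart from their group. Cre-positive SC replicate 1 at E17.5 was closest to retina replicate 1 of that stage (Pearson r = 0.614 across genes, against 0.545 with its own replicate). Cre-positive SC replicate 2 at E17.5 was closest to Cre-negative SC replicate 2 of that stage (Pearson r = 0.812 across genes, against 0.545 with its own replicate), and adult Cre-negative SC replicate 1 was closest to adult retina replicate 2 (0.789, against 0.512 with its own replicate) and held photoreceptor markers at a summed 66.2 FPKM, where the other adult SC libraries had 1.22 to 3.22. At P7.5, Cre-positive SC replicates 1 and 2 were closest to Cre-negative SC replicates 1 and 2 (0.900 and 0.768, against 0.762 with each other). Retina replicate 1 of P7.5 was closest to Cre-positive SC replicate 1 of that stage (0.862, against 0.697 with its own replicate). At P0.5 the libraries of each group were closest to each other. Of the RGC markers, Rbpms was at 0 in all 16 SC libraries, and the list of 10 RGC markers was mixed at P0.5. Its summed level was 512 and 245 FPKM in Cre-positive against 940 and 330 FPKM in Cre-negative SC, mostly from Pou4f1 (231 and 86.0 against 705 and 191) and Gap43, while Nefl (47.5 and 17.54 against 4.22 and 2.82), Slc17a6 (12.2 and 5.13 against 1.46 and 0.223) and Nefm were higher with Cre. In bulk tissue, fewer axons and less ribosome-bound mRNA per axon cannot be told apart.

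Among the 8 genes, Rictor was the only one with a level above 0 in all 24 libraries, and most of the others were at or near 0 in most libraries. Over the 8 genes and 24 libraries, 98 values were above 0 and 70 of them rested on at least 3 estimated fragments. FPKM is divided by transcript length, but the priming can favour 3′ ends, so that levels of long transcripts such as Rictor and Mtor and of short ones such as Rheb may not be on an equal footing.

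Upstream of the TSC complex, Akt1 (chr12:112653821-112674884 on the minus strand, mm10), a kinase that carries the PI3K signal, was above 0 in 14 of 24 libraries. In Cre-positive SC it was at 42.7 and 0.0313 FPKM at E17.5, 10.7 and 2.33 at P0.5, 0.0355 and 0 at P7.5, and 0 and 0 in the adult. Cre-negative SC had 4.72 and 0 at E17.5, 0 and 0 at P0.5, 0.755 and 0.0382 at P7.5, and 0.727 and 0 in the adult. At E17.5 the high value came from 1 of the 2 Cre-positive libraries, and only at P0.5 did both Cre-positive libraries lie above both Cre-negative libraries. In retina, Akt1 reached at most 3.47 FPKM, in adult replicate 2, with the other adult library at 0.

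Tsc2 (chr17:24595816-24632630 on the minus strand), the subunit of the TSC complex that acts on RHEB, gave the sharpest pattern of the 8 genes. At P0.5, Cre-positive SC had 24.7 and 24.5 FPKM, resting on an estimated 987 and 1306 fragments. Cre-negative SC at P0.5 had 0.0248 and 0 FPKM and retina 0.142 and 0.0462 FPKM. The Cre-positive libraries at P0.5 agreed closely and lay above every other library. In Cre-positive SC at the other stages, Tsc2 was at 0.0217 and 0 FPKM at E17.5, 0.059 and 3.17 at P7.5, and 0 and 0 in the adult. The next highest value of any library was 4.76 FPKM in Cre-negative SC replicate 2 of the adult. The 3′ end of Tsc2 overlaps that of Pkd1, which lies on the other strand, and the counting is not stated to use strand. Pkd1 had 1.92 and 0.478 FPKM in Cre-positive and 0 and 0.006 FPKM in Cre-negative SC at P0.5, and 3.12 FPKM in the P7.5 Cre-positive library that had 3.17 FPKM of Tsc2. Reads of these genes may therefore not be fully separated. Tsc1 (chr2:28641228-28691167 on the plus strand), which stabilises TSC2, did not follow it: it was listed at 0 in both P0.5 Cre-positive libraries and in 18 of 24 libraries, and passed 1 FPKM only in Cre-positive SC replicate 2 at E17.5 (1.82 FPKM).

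Rheb (chr5:24802823-24842624 on the minus strand), the GTPase that the TSC complex inhibits, was at 12.6 and 1.71 FPKM in Cre-positive SC at P0.5, on an estimated 143 and 26 fragments. Cre-negative SC at that stage had 0 and 0.0628 FPKM, and retina 0.729 and 0.606 FPKM. Both Cre-positive libraries lay above all 4 others of that stage, though they differed widely from each other. At the other stages Rheb was at 0 in 5 of 6 Cre-positive SC libraries (0.0577 FPKM in the other) and in all 6 Cre-negative ones. In retina it was highest at E17.5, at 0.696 and 3.20 FPKM, and was above 0 in 6 of 8 libraries.

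The genes of the mTOR kinase complexes split into Rictor, which was read everywhere, and Mtor and Rptor, which were not. Mtor (chr4:148448611-148557683 on the plus strand), the kinase itself, was above 0 in 7 of 24 libraries and never reached 1 FPKM. Its highest value was 0.741 FPKM in Cre-negative SC replicate 1 at P7.5, and 5 of its 7 values above 0 were in retina, at 0.0109 to 0.0887 FPKM. In Cre-positive SC only 1 library had Mtor above 0, at 0.0154 FPKM, which is about 1 fragment. Rptor (chr11:119602905-119899576 on the plus strand), the scaffold of mTORC1, was above 0 in 10 of 24 libraries with a maximum of 0.584 FPKM in E17.5 retina, and in 1 of 8 Cre-positive SC libraries, at 0.485 FPKM at P7.5. At these depths neither mRNA can be called absent.

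Rictor (chr15:6708379-6800401 on the plus strand), the scaffold of mTORC2, was at 1 FPKM or more in 8 of 8 Cre-positive SC libraries, 4 of 8 Cre-negative SC libraries and 5 of 8 retina libraries. In Cre-positive SC it was at 9.13 and 2.04 FPKM at E17.5, 5.14 and 5.30 at P0.5, 2.78 and 1.65 at P7.5, and 6.89 and 7.94 in the adult. In Cre-negative SC it was at 7.23 and 0.877 FPKM at E17.5, 0.194 and 2.34 at P0.5, 9.48 and 0.718 at P7.5, and 4.48 and 0.387 in the adult. Retina ranged from 0.506 to 4.35 FPKM. The Cre-positive and Cre-negative groups overlapped at E17.5 and P7.5 and did not overlap at P0.5 and in the adult. The level in Cre-negative SC means that part of the Rictor signal does not depend on the tag.

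Downstream, Rps6kb1 (chr11:86498871-86544805 on the minus strand), which encodes the S6 kinase S6K1, was above 0 in 11 of 24 libraries and at 1 FPKM or more in 4. These were Cre-positive SC replicate 2 (2.12 FPKM), Cre-negative SC replicate 2 (6.60) and retina replicate 2 (1.98) at E17.5, and Cre-negative SC replicate 1 at P7.5 (2.18). The highest value of Rps6kb1 was thus in a library without the tag, and the gene was at 0 in all 4 SC libraries of P0.5.

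**Figure D1:**
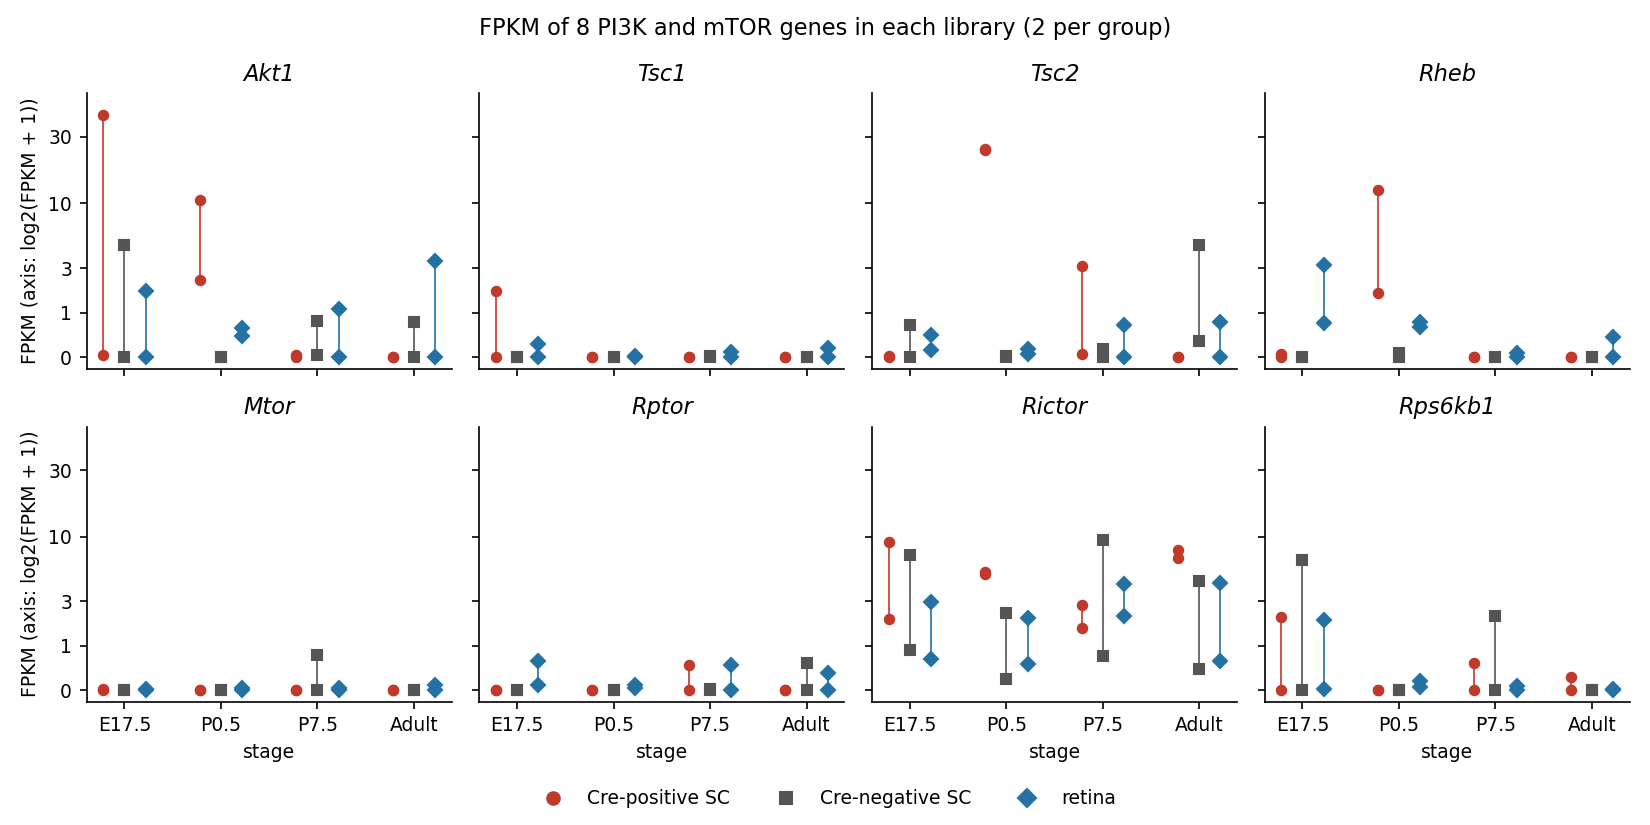
FPKM of the 8 genes in each of the 24 libraries, on a log2(FPKM + 1) axis, by stage; each point is 1 library and a line joins the 2 libraries of a group. Tsc2 and Rheb were high in both Cre-positive SC libraries at P0.5 (24.7 and 24.5 FPKM, 12.6 and 1.71 FPKM), Rictor was above 0 in all 24 libraries, and Mtor stayed under 1 FPKM in all of them.

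Setting SC with Cre against SC without Cre at each stage asks which of the signals depend on the tagged axonal ribosomes. At P0.5, Tsc2 and Rheb were higher in Cre-positive SC. The difference in log2(FPKM + 1) was 4.66 for Tsc2 (SE 0.82, limma adjusted p = 0.00112) and 2.56 for Rheb (SE 0.57, limma adjusted p = 0.00515), in 2 against 2 libraries. On this scale the change of genes near 0 is understated. Of the 8 genes, 5 reached 1 FPKM in 2 or more SC libraries, which was the condition for a test, and 2 of these 5 were called higher at P0.5, where 28.1% of all 5983 genes tested were called higher and 4.35% lower and the median difference over all genes was 0.78. Relative to that median, Tsc2 was higher by 3.88 and Rheb by 1.78. Rheb met that condition only through the P0.5 Cre-positive libraries, as did 1267 of the 5983 genes (21.2%), so that it had to be high there. Its values in the comparisons of SC that involve P0.5 are therefore a description of these libraries, and the count was not read as a property of the 8 genes. Tsc2 met the condition also through 2 other libraries.

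The other tested genes did not pass the threshold at P0.5. Akt1 differed by 2.64 (SE 1.47, limma adjusted p = 0.230), and Rictor by 1.64 (SE 1.21, limma adjusted p = 0.412). For both, the groups did not overlap, as was the case for 4 of the 5 genes tested and for 62.0% of all genes tested, and the 95% intervals of the differences, -0.61 to 5.89 for Akt1 and -1.04 to 4.32 for Rictor, reached from below 0 to large positive values. When the 4 SC libraries of P0.5 were fitted alone, Akt1 passed (limma adjusted p = 0.0414) and Rheb did not (limma adjusted p = 0.0757). In that fit Tsc2, Akt1, Rheb and Rictor met the filter only with the Cre-positive libraries. The calls of that fit are therefore a description of those libraries. Without replicate 1 or replicate 2 of P0.5 Cre-positive SC, Rheb no longer passed the filter and was not tested. Tsc2 kept its call there and in all 10 alternatives tried, with differences of 4.39 to 7.79. The fit of P0.5 alone is among the 10, and the direction of Tsc2 was fixed in it.

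Markers of other cells were read in the same P0.5 libraries. The summed level of 5 astrocyte markers was 47.9 and 36.2 FPKM in Cre-positive against 5.77 and 10.6 FPKM in Cre-negative SC, with Gfap and Aqp4 at 0 in all 4. The microglial marker C1qa accounted for a summed 77.0 and 43.2 FPKM in Cre-negative SC, and the 4 microglial markers were at 0 in Cre-positive SC. Of the 4 markers of SC neurons, Gad1, Gad2 and Slc32a1 were at 0 in all 4 libraries, and Tfap2b was at 201 and 83.8 FPKM in Cre-positive and 178 and 61.4 FPKM in Cre-negative SC. Tfap2b was also at 433 and 222 FPKM in retina at P0.5, so it does not mark SC neurons alone. The part of these other cells in the differences of Tsc2 and Rheb was not tested.

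At the other stages none of the 5 tested genes differed between Cre-positive and Cre-negative SC by limma. At E17.5, where 0.468% of all genes tested were called higher and 1.1% lower, the groups overlapped for all 5 genes (13.3% of all genes did not overlap), and the largest difference among the members was that of Akt1, at 1.49 (SE 1.47, limma adjusted p = 0.876), carried by 1 library of 42.7 FPKM. At P7.5, 0.0% of genes were called in either direction, and an unadjusted p under 0.05 was reached by 25 genes in the higher and 59 in the lower direction. The groups did not overlap for 1 of 5 members, Akt1, which was lower in Cre-positive SC (10.9% of all genes). Tsc2 differed there by 0.97 (SE 0.82, limma adjusted p = 1). In the adult, 0.0836% were called higher and 0.0669% lower, and the groups did not overlap for 2 of 5 members, Rictor and Tsc2 (7.81% of all genes). Rictor differed by 1.61 (SE 1.21, limma adjusted p = 1), and Tsc2 differed by -1.45 (SE 0.82, limma adjusted p = 1), being at 0 in both Cre-positive libraries. No member had an unadjusted p under 0.05 at these 3 stages. The estimated depth of the adult SC libraries was so low that an absent signal there is not shown to be an absent mRNA.

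Comparing consecutive stages within Cre-positive SC asks how its signal changed during development. That signal includes what the precipitation picks up without a tag, and at P7.5 the Cre-positive libraries did not stand apart from the Cre-negative ones. From E17.5 to P0.5, Tsc2 rose by 4.66 (SE 0.82, limma adjusted p = 0.00127) and Rheb by 2.56 (SE 0.57, limma adjusted p = 0.00579) on the log2(FPKM + 1) scale, where 25.1% of all genes tested rose and 1.81% fell. From P0.5 to P7.5, Tsc2 fell by 3.61 (SE 0.82, limma adjusted p = 0.00634) and Rheb fell by 2.60 (SE 0.57, limma adjusted p = 0.00509), where 29.2% of all genes fell and 0.501% rose. Both changes of Rheb were fixed by its entry into the test through the P0.5 libraries. The median change over all genes was 0.69 in the first step and -1.19 in the second. Akt1, Rictor and Rps6kb1 did not pass in either step. The groups did not overlap for Tsc2 and Rheb in the first step (52.5% of all genes), for 4 of 5 members in the second (Akt1, Rheb, Rictor and Tsc2, against 61.5% of all genes), and for Rictor and Tsc2 from P7.5 to the adult (14.0%). In that last step none of the 5 passed, where 0.0836% of genes rose and 0.0% fell. These stage changes share the P0.5 libraries with the Cre comparison and are not separate evidence.

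The stage changes of Tsc2 and Rheb rested on few libraries. Without replicate 1 of P0.5 Cre-positive SC, neither gene was called in the first step (Tsc2 4.66, limma adjusted p = 0.0541, with Rheb not tested). In the second step neither was called without replicate 1 or without replicate 2 of P0.5 Cre-positive SC (Tsc2 limma adjusted p = 0.122 and 0.0719), and Tsc2 was not called without replicate 1 of P7.5 Cre-positive SC (-2.62, limma adjusted p = 0.0669), since the remaining P7.5 library had 3.17 FPKM.

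Whether the change of Cre-positive SC differed from that of Cre-negative SC was tested as an interaction. From E17.5 to P0.5 the change was greater in Cre-positive SC by 5.01 for Tsc2 (SE 1.16, limma adjusted p = 0.00817) and by 2.52 for Rheb (SE 0.80, limma adjusted p = 0.0388), where 23.9% of all genes tested were called in that direction and 3.23% in the other. Median-ratio scaling moved the median interaction over all genes from 1.59 to 1.48, and relative to the unscaled median Tsc2 stood at 3.42 and Rheb at 0.93. From P0.5 to P7.5 the difference between the changes was -3.69 for Tsc2 (SE 1.16) and -2.56 for Rheb (SE 0.80), with a limma adjusted p of 0.0441 for each, where 18.7% of all genes were called lower and 2.74% higher. These calls were sensitive to single libraries, and that of Rheb was again fixed in direction by the filter. Rheb lost its call in both steps whichever library was left out, or was then not tested. Tsc2 lost it in the first step without replicate 1 or 2 of P0.5 Cre-positive SC (limma adjusted p = 0.0838 and 0.0564), and in the second step it kept its call only without P7.5 Cre-positive SC replicate 2. From P7.5 to the adult none of the 5 genes passed and 0.0% of genes were called in either direction.

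**Figure D2:**
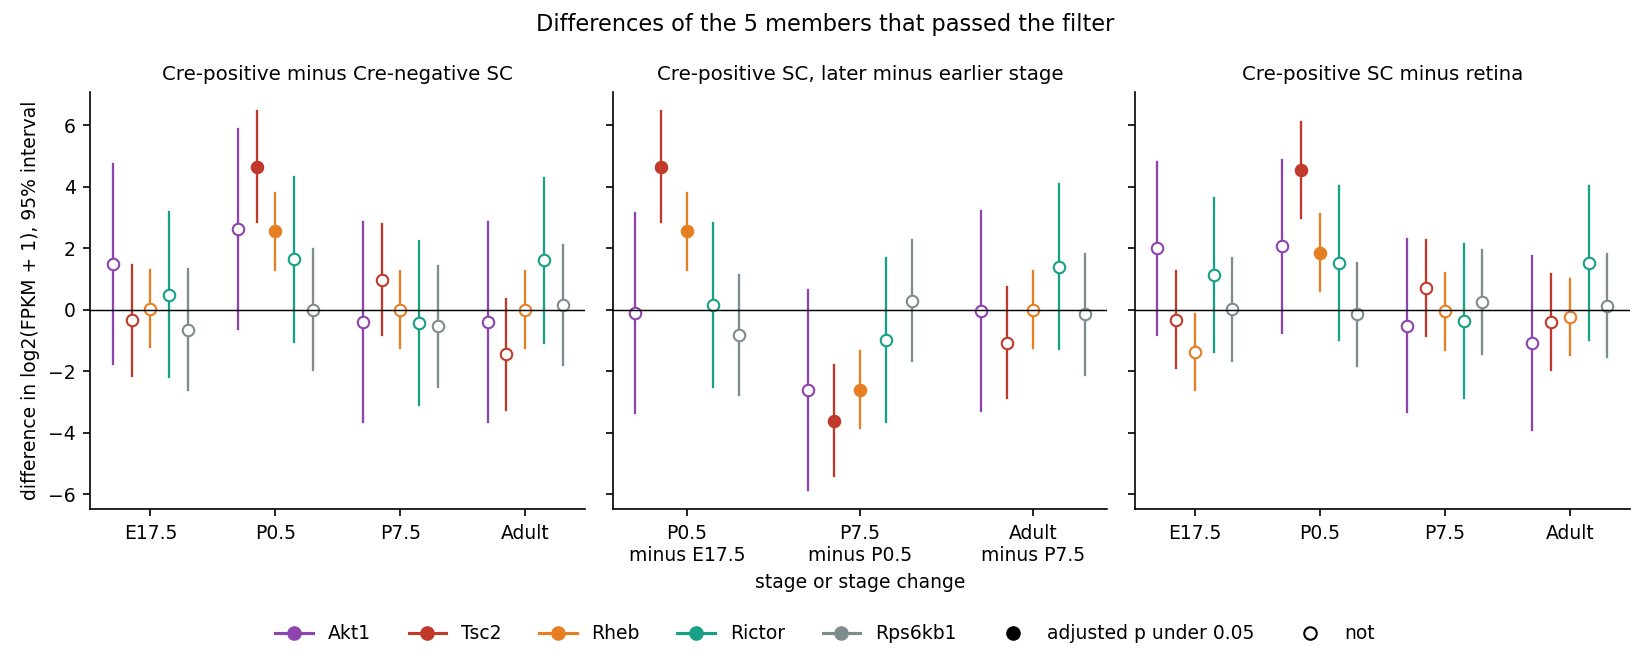
Differences in log2(FPKM + 1) with 95% intervals for the 5 genes that passed the filter, between Cre-positive and Cre-negative SC (left), between consecutive stages of Cre-positive SC (middle) and between Cre-positive SC and retina (right); filled circles have a limma adjusted p under 0.05. Of the 5, only Tsc2 and Rheb were past the threshold, in the comparisons that involve P0.5 Cre-positive SC. Against Cre-negative SC they were at 4.66 and 2.56, where 28.1% of all genes tested were called higher. Rheb met the filter only with the P0.5 Cre-positive libraries, so that it had to be high there.

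In retina, which holds the RGC cell bodies among other cells, no stage change was called for the members. Only Akt1 and Rictor passed the filter there. Their changes ranged from -0.50 to 0.92 on the log2(FPKM + 1) scale with SEs of 0.98 for Akt1 and 1.51 for Rictor, and a limma adjusted p of 1 in all 3 steps. Of 4080 genes tested, 0.0% were called in either direction from E17.5 to P0.5 (8 in the higher and 26 in the lower direction had an unadjusted p under 0.05), 0.0245% rose and 0.049% fell from P0.5 to P7.5, and 0.0% were called from P7.5 to the adult (14 and 43 at an unadjusted p under 0.05). The groups did not overlap for 0 of 2 members in the first step (33.2% of all genes), for Rictor in the second (23.9%) and for 0 of 2 in the last (7.48%). Median-ratio scaling moved the median change over all genes from -0.50 to -0.12 in the first step and from 0.32 to 0.03 in the second. Relative to the unscaled median, Akt1 changed by 0.33 and -0.36 and Rictor by 0.27 and 0.60 in these steps.

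Comparing Cre-positive SC with retina sets the signal of tagged SC, including what is picked up without a tag, against that of the tissue with the cell bodies. At P0.5, Tsc2 was higher in Cre-positive SC by 4.55 (SE 0.74, limma adjusted p = 1.55e-04) and Rheb by 1.87 (SE 0.59, limma adjusted p = 0.0249), where 26.4% of the 7193 genes tested were called higher and 1.49% lower and the median difference was 0.33. The groups did not overlap for 5 of 5 members, with Rps6kb1 lower in SC and the others higher, nor for 78.3% of all genes. Tsc2 kept its call without any 1 of the 4 libraries. Rheb reached 1 FPKM in only 1 library outside P0.5 Cre-positive SC, so it met the filter only with that group, and it lost its call without replicate 1 of P0.5 Cre-positive SC (0.70, limma adjusted p = 0.570) and without either retina library (limma adjusted p = 0.0930 and 0.117). Retina at P0.5 had 0.39 and 0.593 FPKM of Akt1, 0.506 and 2.09 FPKM of Rictor and 0.161 and 0.0527 FPKM of Rps6kb1, and none of these genes passed the test against Cre-positive SC. At E17.5, the difference of Rheb was -1.38 (SE 0.59, limma adjusted p = 0.435), where 0.459% of genes were called higher and 0.862% lower. The groups did not overlap for Rheb and Tsc2, both lower in SC, nor for 29.9% of all genes. In the same comparison Akt1 was called only when Cre-positive SC replicate 2 was left out (difference 4.71). The remaining replicate 1 had Akt1 at 42.7 FPKM. Both replicates stood apart, and replicate 1 was closest to retina replicate 1 of that stage (Pearson r = 0.614). At P7.5 0.0% of genes were called in either direction (131 and 81 at an unadjusted p under 0.05), and the groups overlapped for all 5 members (23.3% of genes did not overlap). In the adult 0.0973% were called higher and 0.0% lower, and Rictor had 6.89 and 7.94 FPKM in SC against 4.35 and 0.572 FPKM in retina. No member passed at either stage.

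The rest of the pathway was followed with 81 further genes in 9 groups. Of these, 57 were above 0 in at least 1 Cre-positive SC library, 54 in Cre-negative SC and 80 in retina, but only 13, 12 and 22 reached 1 FPKM in 4 or more of the 8 libraries. In the SC comparisons 38 of the 81 passed the filter. At P0.5, Cre-positive SC was higher than Cre-negative SC for 6 of the 38 and lower for 1 (15.8% and 2.63%, against 28.1% and 4.35% of all genes tested), with a median difference of 0.08 against 0.78 over all genes. Of the 6, all but Igf1r (Akt1s1, Lamtor1, Eif4e, Eif4b and Grb10) met the filter only with the P0.5 Cre-positive libraries, having 1 FPKM in at most 1 other SC library. They had to be high there, and their differences, stage changes and interactions around P0.5 are given as a description, not as support for a change of the pathway.

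Of the receptors and adaptors at P0.5, 2 of the 3 tested were higher in Cre-positive SC. Igf1r, the receptor of insulin-like growth factor 1, had 11.8 and 1.90 FPKM in Cre-positive against 0.113 and 0.0213 FPKM in Cre-negative SC (difference 2.52, limma adjusted p = 0.0456), and Grb10, an adaptor that restrains insulin receptor signalling, had 4.58 and 3.52 FPKM against 0 and 0 (2.33, limma adjusted p = 1.56e-04). Of 7 genes tested for PI3K and phosphatases, Pik3r1, which encodes the regulatory subunit p85 alpha of PI3K, was lower, at 0 and 0.0196 FPKM against 27.8 and 4.04 FPKM (-3.58, limma adjusted p = 0.00645). Pik3r1 was thus highest in libraries without the tag.

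Of 3 other mTOR complex subunits tested, Akt1s1 was higher at P0.5. It encodes PRAS40, an Akt substrate that inhibits mTORC1, and had 82.0 and 52.2 FPKM in Cre-positive against 0.144 and 0.0825 FPKM in Cre-negative SC (5.90, limma adjusted p = 9.95e-04), with 0.818 and 0.384 FPKM in retina. Of 9 genes for Rag and lysosomal input, Lamtor1, a subunit of the Ragulator complex that holds Rag GTPases at the lysosome, was higher, at 46.1 and 16.6 FPKM against 0 and 0 (4.85, limma adjusted p = 0.00425). Of 5 effectors tested, Eif4e, the cap-binding protein held back by 4E-BP, was at 16.3 and 4.28 FPKM against 0 and 0 (3.26, limma adjusted p = 0.00144) and Eif4b, a translation initiation factor that S6 kinase phosphorylates, at 3.57 and 2.89 against 0 and 0 (2.08, limma adjusted p = 6.59e-04). None of the 38 genes was called at E17.5, P7.5 or in the adult by limma. Without Cre-negative SC replicate 2 of E17.5, however, 8 of them were called lower at that stage, and without P0.5 Cre-positive SC replicate 1, 3 were called higher at P0.5.

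High levels at P0.5 were not limited to tagged tissue. Lamtor2, another Ragulator subunit, had 104 and 62.9 FPKM in Cre-positive but 394 and 191 FPKM in Cre-negative SC, and Stk11, which encodes the AMPK kinase LKB1, had 83.0 and 47.6 against 69.4 and 40.6 FPKM. Ddit4, an inhibitor of mTORC1 induced by stress, had 2.22 and 5.31 against 1.37 and 6.15 FPKM. The groups lay close together or, for Lamtor2, higher without Cre, so their signal at P0.5 cannot be assigned to RGC axons by this comparison.

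Along development, 7 of the 38 pathway genes rose from E17.5 to P0.5 in Cre-positive SC and none fell, and 9 fell from P0.5 to P7.5 and none rose. These are 18.4% and 23.7% of those tested, against 25.1% and 29.2% of all genes, and 5 of the genes in each step are those whose direction the filter fixed. The 5 largest rises were those of Lamtor2 (6.15, limma adjusted p = 0.0148), Akt1s1 (5.60, limma adjusted p = 0.00161), Lamtor1 (4.80, limma adjusted p = 0.00514), Eif4e (2.56, limma adjusted p = 0.00739) and Grb10 (2.27, limma adjusted p = 2.18e-04). The 5 largest falls were those of Lamtor2 (-6.35, limma adjusted p = 0.0121), Akt1s1 (-6.05, limma adjusted p = 9.23e-04), Poldip3 (-5.80, limma adjusted p = 0.0499), Lamtor1 (-4.85, limma adjusted p = 0.00463) and Eif4e (-3.26, limma adjusted p = 0.00158). Poldip3 binds S6K1 at newly spliced mRNAs, and it too was read without Cre at P0.5, at 244 and 54.3 FPKM against 173 and 61.8 FPKM. In the interaction test, Akt1s1 (7.35, limma adjusted p = 0.00327), Lamtor1 (6.81, 0.00584), Eif4b (2.57, 0.00241), Eif4e (2.56, 0.0437) and Grb10 (2.27, 0.00302) rose more in Cre-positive than in Cre-negative SC from E17.5 to P0.5, Pik3r1 less (-4.03, 0.0249), and the same 6 genes were called in the opposite direction from P0.5 to P7.5. When single libraries were left out, the 5 higher calls of the first step became 1 to 10 and the 5 lower calls of the second became 0 to 4, both lowest without P0.5 Cre-positive SC replicate 1. None passed in the step to the adult.

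Against retina at P0.5, 51 of the 81 genes were tested, and Cre-positive SC was higher for 5 and lower for 1 (9.80% and 1.96%, against 26.4% and 1.49% of all genes). Akt1s1 (5.39, limma adjusted p = 6.11e-04), Stk11 (4.54, limma adjusted p = 0.0488), Lamtor2 (4.53, limma adjusted p = 0.0433), Lamtor1 (3.52, limma adjusted p = 0.0305) and Ddit4 (2.03, limma adjusted p = 0.00301) were higher. Irs1, the adaptor of insulin and IGF receptors, was lower, at 2.62 and 0.494 FPKM against 20.3 and 10.03 FPKM in retina (-2.72, limma adjusted p = 0.0325). At E17.5, Lamtor5, a further Ragulator subunit, was lower in Cre-positive SC, at 0 and 0.111 against 1.18 and 6.45 FPKM in retina (-1.94, limma adjusted p = 0.0152). It met the filter only through those 2 retina libraries. No pathway gene passed at P7.5 or in the adult, or between stages within retina.

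**Figure D3:**
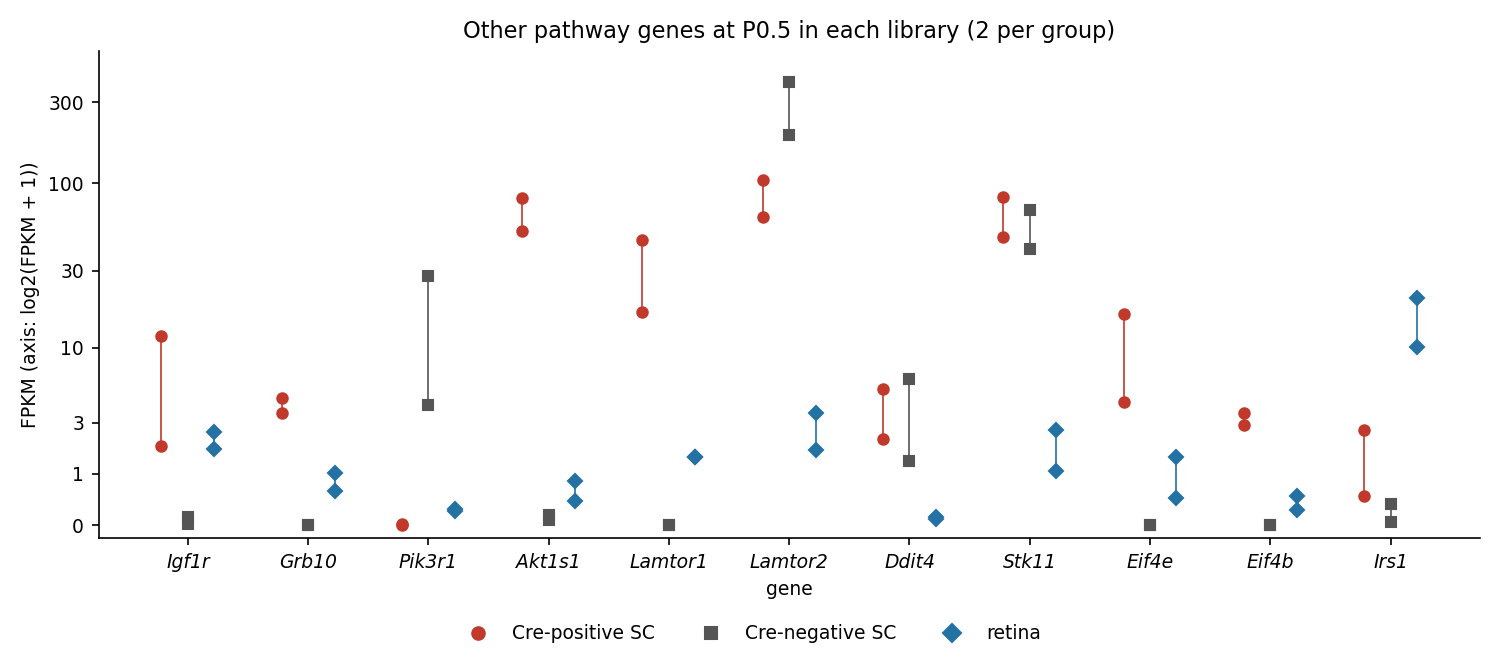
FPKM at P0.5 of 11 other pathway genes that passed a test at P0.5 against Cre-negative SC or retina, on a log2(FPKM + 1) axis; each point is 1 library, 2 per group. Akt1s1 (82.0 and 52.2 FPKM) and Lamtor1 (46.1 and 16.6 FPKM) were high in Cre-positive SC only, whereas Lamtor2, Stk11 and Ddit4 were also read in Cre-negative SC, Lamtor2 at a higher level, and Pik3r1 was high there only.

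Run-off asks which mRNAs are held by elongating ribosomes: ribosomes that finish translation leave their mRNA before the immunoprecipitation. The values are reads per gene in 1 library each, so that no test was made, and intervals are exact 95% binomial ones that cover counting error only. Adult Cre-positive SC gave 3262914 reads on genes without and 349395 with run-off (10.7% as many), and adult retina 4686284 and 315009 (6.72% as many). Library input had been adjusted to the amount of cDNA, and reads were therefore compared without scaling. The run-off set held no Cre-negative SC. Reads in SC that do not depend on the tag could therefore not be set apart.

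In SC, Tsc2 had 602 reads without and 0 with run-off, which allows up to 0.615% to be left. Rheb had 390 and 0 reads, which allows up to 0.950%. Tsc1 went from 326 to 27 reads, or 8.28% left (95% interval 5.38% to 12.3%). Reads of these 3 genes were thus lost as far as, or further than, those of the library as a whole. The same held for most genes. Of the 3627 genes with at least 20 reads in SC without run-off, 81.2% lay below the library total and 50.8% had none left. Akt1 kept most of its reads, with 98 without and 93 with run-off (94.9% left, 70.7% to 127%). The other members gave almost no reads in SC: Rictor had 1 and 1, Rps6kb1 0 and 1, and Mtor and Rptor 0 and 0. Of the members with at least 20 reads without run-off, 4 of 4 had fewer with run-off, beside 97.2% of the 3627 such genes in the whole library. Akt1 is counted among the 4, though its interval covered no change. Pkd1, which overlaps Tsc2, had 437 and 1 reads in SC, and 0 without and 41 with run-off in retina. Reads of this pair may therefore not be fully separated in either tissue.

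In retina the members differed from each other. Rheb had 111 reads without and 12 with run-off (10.8% left, 5.42% to 19.6%), Rictor 72 and 4 (5.56%, 1.47% to 14.9%), Akt1 44 and 0 (up to 8.75%) and Mtor 18 and 0 (up to 22.7%). Rptor kept most of its reads, with 54 and 47 (87.0%, 57.6% to 131%). Tsc1 and Tsc2 had more reads with run-off than without, 89 against 16 and 26 against 10, and Rps6kb1 had none. Akt1 thus kept most of its reads in SC and had none left in retina, while Tsc1 and Tsc2 lost most or all of theirs in SC and had more in retina. With 1 library per condition, these differences compare libraries, and scaling to library size moves them: Tsc1 in SC then stood at 77.4% of its value without run-off, Akt1 in SC at 886% and Rictor in retina at 82.7%.

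**Figure D4:**
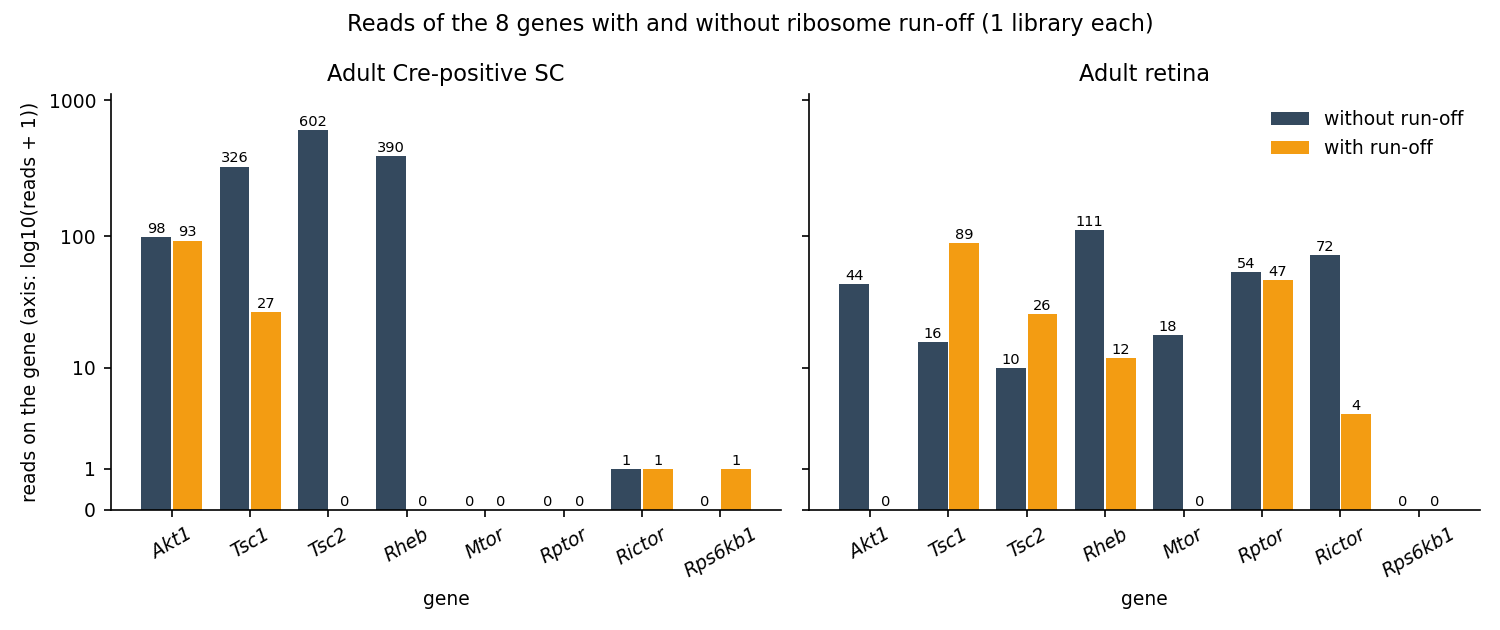
Reads on each of the 8 genes in the adult libraries without and with ribosome run-off, in Cre-positive SC and in retina, on a log10(reads + 1) axis with the reads above each bar; each bar is 1 library. Tsc2 (602 to 0), Rheb (390 to 0) and Tsc1 (326 to 27) lost most or all of their reads in SC and Akt1 (98 to 93) kept most.

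Of the 81 other pathway genes, 34 had at least 20 reads in SC without run-off, and 33 of them had fewer with run-off, with 11 at 0 and a median of 2% left, beside 97.2% of all such genes with a median of 0%. The receptors and adaptors Igf1r, Irs1 and Irs2 went to 0 from 285, 170 and 120 reads, and Grb10 from 55 to 3. Of PI3K and its phosphatases, Pik3ca, a catalytic subunit of PI3K, went from 440 to 136 (30.9% left, 25.3% to 37.5%) and Inpp4a from 69024 to 5012. Among the kinases around Akt, Sgk1 went from 201 to 1 and Gsk3b from 44393 to 1923. Inpp4a and Gsk3b were also read without Cre in the adult FPKM libraries. Inpp4a had 1622 and 3529 FPKM in Cre-negative against 946 and 4293 FPKM in Cre-positive SC. Gsk3b had 214 and 164 FPKM against 217 and 279 FPKM.

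Of the other mTOR complex subunits, Mlst8, which is shared by both complexes, had 75 and 2 reads and Deptor, an inhibitor of mTOR, 557 and 76. Mapkap1, a subunit of mTORC2, had 145 and 12, Prr5 67 and 9, and Tti1, needed for the assembly of mTOR complexes, 140 and 105 (75.0% left, 57.7% to 97.3%). Tbc1d7, the third subunit of the TSC complex, went from 345 to 0. On the lysosomal branch, Rraga, Rragc and Rragd had 224, 426 and 4444 reads without and 6, 0 and 475 with run-off, Lamtor1, Lamtor3 and Lamtor4 had 215, 128 and 64 without and 0, 1 and 8 with, and Flcn and Slc38a9 had 82 and 164 without and 3 and 0 with. Of the GATOR complexes, Seh1l went from 348 to 1. Of the stress inputs, Ddit4l had 319 and 2, Sesn1 188 and 0 and Stk11 75 and 1. Among the effectors, Pdcd4 had 2571 and 240, Ulk1 232 and 3, Eef2k 136 and 0, Eif4b 53 and 9 and Larp1 20 and 1. Of the pathway genes with at least 20 reads without run-off, only Poldip3 had more with it (122 and 213, 175% left, 139% to 220%). Genes with fewer reads went either way, as with Eif4ebp2 (16 and 76), Pdpk1 (1 and 25) and Lamtor2 (18 and 0).

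The adult libraries of the time course and the adult run-off library without run-off are the same tissue, and they did not rank the members alike. In Cre-positive SC, Tsc1, Tsc2, Rheb and Akt1 were listed at 0 FPKM in both libraries, and had 13.0, 29.4, 67.0 and 11.2 RPKM, that is, reads scaled by transcript length and library size, in the library without run-off. Rictor was the reverse, at 6.89 and 7.94 FPKM against 1 read, or 0.0329 RPKM. Across genes, the library without run-off had a Pearson r of 0.178 with SC replicate 1 (4402 genes) and 0.242 with SC replicate 2 (3934 genes) on the log scale, and the replicates had 0.416 with each other (2087 genes); in retina these values were 0.527, 0.572 and 0.620. The adult level of these 8 genes in SC therefore depended on which library was read.

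**Figure D5:**
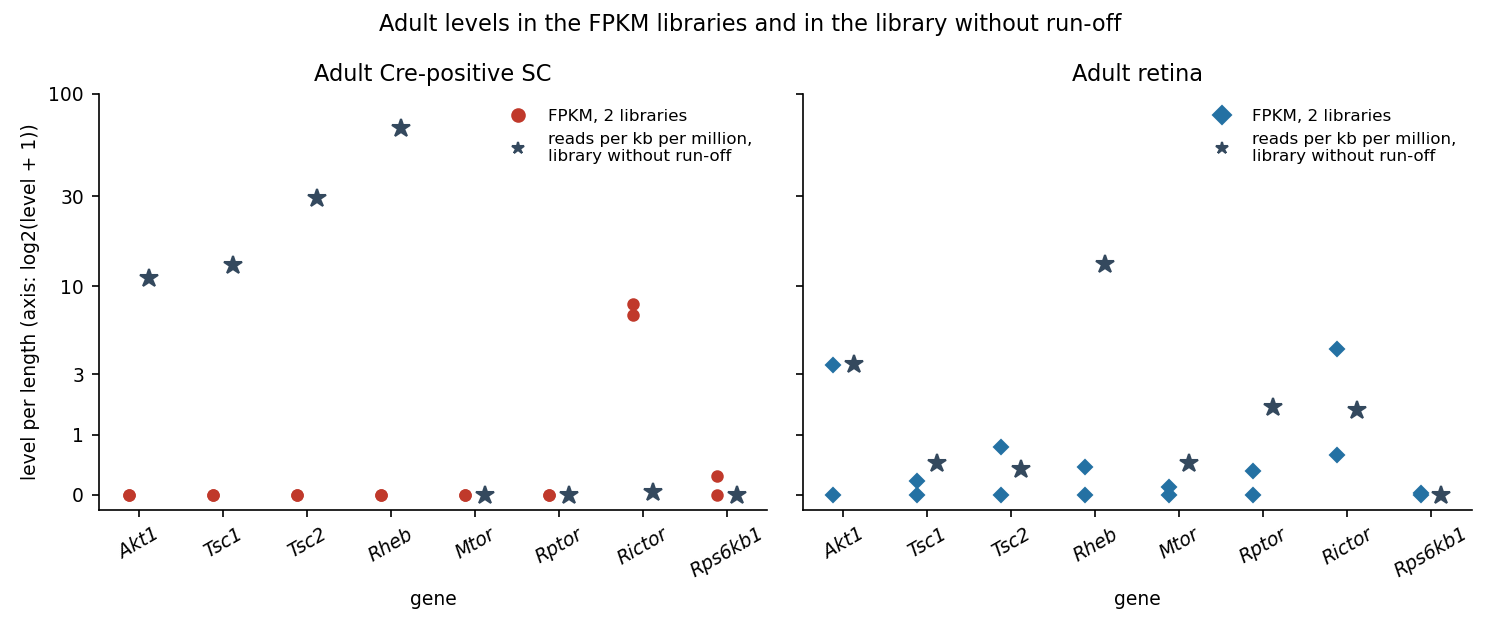
Adult levels per transcript length, on a log2(level + 1) axis, of the 8 genes as FPKM in the 2 libraries of the time course (circles or diamonds) and as RPKM in the library without run-off (stars). In Cre-positive SC, Rheb (67.0), Tsc2 (29.4), Tsc1 (13.0) and Akt1 (11.2) were read only in the latter and Rictor (6.89 and 7.94 FPKM) almost only in the former.

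Over all 24 libraries, the 8 genes varied largely on their own. Of their pairs, Tsc2 and Rheb had the highest Pearson r of log2(FPKM + 1), 0.647, which rests on the P0.5 Cre-positive libraries, and the next were Rheb with Akt1 at 0.427 and Tsc1 with Rps6kb1 at 0.395. The genes most like Rictor, which was at 1 FPKM or more in 17 libraries, were Pi4kb (r = 0.760) and Mrpl45 (0.717), and those most like Akt1, at 1 FPKM or more in 7 libraries, were Srsf6 (0.968) and Morn4 (0.963), of 3285 genes compared over 24 libraries. The medians of Akt1, Srsf6 and Morn4 were 0.0368, 0.029 and 0 FPKM. Their r values therefore rest mainly on the few libraries with high levels. The 24 libraries differ in depth and share stages and tissues, and the values are given as a description. The other 6 members were too rarely at 1 FPKM to be compared in this way.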

How the data were processed

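Reads had been mapped by the authors to mm10 with TopHat2 2.0.12, and the deposited values are FPKM from Cufflinks 2.2.1 for 24 libraries and the count of reads per gene from HTSeq 0.6.1p1, without normalization, for 4 run-off libraries. Oligo(dT) priming and PCR preceded sequencing, which can favour 3′ ends and add noise to weakly read genes. The submitters' notes name no annotation. Of 23995 genes, 4 had a missing or non-numeric entry and were left out. Coordinates and transcript lengths were taken from GENCODE M21 on GRCm38, the assembly called mm10, with the longest coding transcript as length.

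Groups came from the sample labels. Values were tested as log2(FPKM + 1) by limma 3.58.1 (R 4.3.3), with variances moderated robustly around their trend over the mean, for genes at 1 FPKM or more in at least 2 libraries of the fit. The 16 SC libraries, the 8 retina libraries and, for SC against retina, all 24 libraries were fitted separately. All p-values were two-sided and adjusted over all genes tested within a contrast by the Benjamini-Hochberg method, with a threshold of 0.05. Replicates are separate libraries from pooled tissue, and whether litters differed is not given, so that p-values measure the spread between libraries.

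Depth was estimated as the number of fragments that puts low values of 5121 genes with a single coding transcript closest to whole numbers, with 59.4% to 81.5% of these values within 0.15 of one per library. In simulated counts, the limma step recovered 97% of 16-fold and 14.3% of 4-fold changes in the P0.5 comparison of Cre, over 5612 genes. The simulation used the same dispersion for every gene, not taken from these libraries. The shares recovered therefore do not carry over to genes that differ between replicates as widely as Akt1.

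The 8 genes, the pathway list and the marker lists were chosen with earlier results of these data known. All 8 genes are named, as are pathway genes past the threshold (the 5 largest differences per direction and comparison) or with 20 reads or more in SC without run-off, some of which are counted but not reported by name here; Lamtor2, Stk11, Ddit4 and Poldip3 are also described in comparisons they did not pass, since they passed another. Alternatives were another pseudocount (0.1 FPKM), no filter, median-ratio scaling, no trend or robust moderation, each library left out, the replicate number as a block, each stage fitted alone, NOISeq written from its description with probability 0.7, and run-off reads as CPM.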

Additional observations from a re-analysis of the deposited data

Results flagged for a closer look

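For Tsc2 and Rheb, the change between stages differed between Cre-positive and Cre-negative SC by the test of the interaction itself. Rheb entered that test only through the P0.5 Cre-positive libraries, so the direction of its value was fixed, and it lost its call, or was no longer tested, whichever single library was left out. From E17.5 to P0.5, the difference of the changes in log2(FPKM + 1) was 5.01 for Tsc2 and 2.52 for Rheb. The median over all genes was 1.59, and 23.9% of genes were called in that direction. The calls of Tsc2 were also sensitive to single libraries, as given above. Both Cre-positive libraries of P0.5 lay above all Cre-negative libraries of either stage for both genes. From P0.5 to P7.5 the difference was -3.69 for Tsc2 and -2.56 for Rheb, against a median of -1.21 over all genes, of which 18.7% were called lower. The interactions share the P0.5 libraries, so the second pair of values is not separate from the first. The Tsc2 value of the second step was -2.70 (limma adjusted p = 0.163) without P7.5 Cre-positive SC replicate 1. Summed astrocyte markers were also higher in Cre-positive than in Cre-negative SC at P0.5, and their part in these differences was not tested.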

How the results depend on the processing

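At P0.5, 2 members were called between Cre-positive and Cre-negative SC. The count was 1 by NOISeq and 1 to 2 without single libraries, and the 2 genes of the other 6 settings were Tsc2 and Rheb, except that fitting the stage alone gave Tsc2 and Akt1. For the stage changes of Cre-positive SC the 2 calls became 0 to 2 without single libraries in each step. For the interactions with Cre, the 2 calls became 1 without the filter and 1 without trend and robust moderation in the first step. In the second step they became 1 with a pseudocount of 0.1 FPKM, 0 without the filter, 1 with median-ratio scaling and 1 without trend and robust moderation. Without single libraries each interaction gave 0 to 1. Against retina, the 2 calls of P0.5 became 1 with a pseudocount of 0.1 FPKM, 3 with the stage fitted alone (Tsc2, Akt1 and Rictor) and 1 to 2 without single libraries, and the 0 calls of E17.5 became 0 to 1. The cause was not tested, except that Rheb leaves the SC fit by its filter when a P0.5 Cre-positive library is left out. In both fits of P0.5 alone, Tsc2, Akt1, Rheb and Rictor met the filter only with the Cre-positive libraries. Calls in those fits are a description of these libraries and not support. In the other 10 contrasts no member was called in any setting. Fits that leave out a library assume that the remaining one varies like the other groups.

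With run-off reads scaled to library size (CPM), 3 of 7 members of the retina, in place of 5, had lower values with run-off, and Rheb there stood at 161% of its value without run-off, in place of 10.8% in reads, because the library with run-off is smaller. Tsc1 and Akt1 in SC moved from 8.28% to 77.4% and from 94.9% to 886%, and Rictor and Rptor in retina from 5.56% to 82.7% and from 87.0% to 1295%.

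Samples with the same replicate number deviated together at 3 of 4 stages but not in the adult (Cre-positive with Cre-negative SC: r = 0.565, 0.427, 0.456 and 0.081 at E17.5, P0.5, P7.5 and in the adult; Cre-positive SC with retina: 0.1505, 0.449, 0.526 and -0.0981). SC and retina came from the same animals per the methods, and Cre-positive and Cre-negative mice from single litters, but which samples share animals or a litter is not given by the labels, so the numbers were not used as pairs. With the replicate block, the count of members called at P0.5 was 2, and no call of a member changed in any contrast. The block gave 1777 genes higher at P0.5 where 1684 were called, and 4 in place of 28 at E17.5.

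Pathway genes called higher at P0.5 against Cre-negative SC numbered 6, with 3 to 5 without single libraries, and those of the first stage step 7, with 1 to 9, and those lower in the second 9, with 3 to 6, and those higher than retina 5, with 2 without the filter, 14 with the stage fitted alone and 1 to 2 without single libraries. For all genes, 1684 were higher at P0.5, with 333 to 1109 without single libraries, the lowest without P0.5 Cre-positive SC replicate 1. Depth limits what can be seen: 3 fragments on a 2 kb transcript are 3.1 FPKM in the shallowest library (E17.5 Cre-negative SC replicate 1), 0.743 to 2.92 FPKM in the adult SC libraries and 0.11 FPKM in the deepest.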
